A study of Homo sapiens with 6 samples.

Results

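The ribosome biogenesis factors described here are 39 human genes whose products make and fold ribosomal RNA and assemble it with proteins into the small and large ribosomal subunits. They were chosen by gene symbol, with earlier results of these data known, and all 39 were found among the 58395 genes of the deposited table. RNA was sequenced from 786-O cells, an established human renal cell adenocarcinoma line grown in RPMI-1640 medium with fetal bovine serum. In the sgPLOD2 group (3 libraries) the gene PLOD2, which encodes the collagen-modifying enzyme lysyl hydroxylase 2, had been ablated with CRISPR/Cas9. The sgControl group (3 libraries) is the control of that experiment, and no other treatment is named for either group. The labels give no guide sequence and leave unstated whether each group is a clone or a pool and whether its replicates were grown apart. The p-values therefore reflect the spread of these 6 libraries alone, and that spread may be technical.

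A ribosome begins in the nucleolus, where RNA polymerase I transcribes a long precursor RNA. Small nucleolar ribonucleoproteins (snoRNPs), built on small nucleolar RNAs (snoRNAs), methylate and pseudouridylate this precursor. A large particle called the small subunit processome folds and cuts the part that becomes the small subunit, while a separate set of factors matures the large subunit. Growing and cancerous cells are known for high demand on this pathway, and many of its genes are known targets of the transcription factor MYC.

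Levels are given as FPKM (fragments per kilobase of gene, scaled to each library's mapped fragments), a unit that is corrected for gene length and so allows genes to be compared. PLOD2 was at 5.98, 10.1 and 6.64 FPKM in the sgPLOD2 libraries, against 26.8, 25.7 and 21.5 FPKM in the sgControl libraries. The groups did not overlap, and the PLOD2 log2 fold change was -1.61 (SE 0.18, adjusted p = 0.000509, with an exact two-sided permutation p = 0.1, the smallest that 3 against 3 allows). Between 9874 and 10649 genes reached 1 FPKM per library. Mitochondrial genes took 6.01% to 6.72% of summed FPKM in sgPLOD2 libraries and 6.96% to 12.9% in sgControl libraries, with the highest share in sgControl replicate 1. The 9 markers of renal carcinoma cells were all above 1 FPKM in every library. PAX8, KRT8 and KRT18 were not called (adjusted p of 0.05 or more), while EPAS1 (log2 fold change 0.98), CDH6 (0.61) and CDH2 (0.57) were called higher and CA12 (-1.63), VIM (-0.36) and PAX2 (-0.33) lower. Of 11 markers of other cell types, 10 stayed under 1 FPKM in every library and 6 were listed at 0 throughout. Their sum was 5.29 to 6.42 FPKM in sgPLOD2 and 11.7 to 18.7 FPKM in sgControl, nearly all of it the lysosomal protein gene CD68, and its part in the results below was not tested.

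All 39 factors were expressed, and the majority were called higher in sgPLOD2 cells. All 39 passed the minimum mean of 1 FPKM, with means over all 6 libraries between 1.82 FPKM for UTP15 and 193 FPKM for NPM1. A gene is called here when its Benjamini-Hochberg adjusted p over all 10469 tested genes was under 0.05 in limma's moderated test on log2(FPKM + 1). Of the 39 factors, 21 (53.8%) were called higher in sgPLOD2, against 29.5% of all tested genes. Another 4 (10.3%) were called lower, against 23.5% of all tested genes, and 14 were not called. Every sgPLOD2 library lay above every sgControl library for 22 factors (background 34.7% of tested genes), and below for 6 (background 28%). The median log2 fold change was 0.30 over the factors and 0.06 over all tested genes, and single factors ran between -0.52 and 1.10. Rescaling each library to the same total (TPM) moved the median of all genes to 0.20 and the higher share of all calls to 66.8%, against 55.7% as deposited. Under TPM 23 factors were called higher and 2 lower, against 35.1% and 17.5% of all tested genes, with a median of 0.45. Under median-of-ratios scaling 17 were called higher and 6 lower, against 26.1% and 26.2% of all tested genes, with a median of 0.24.

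**Figure D1:**
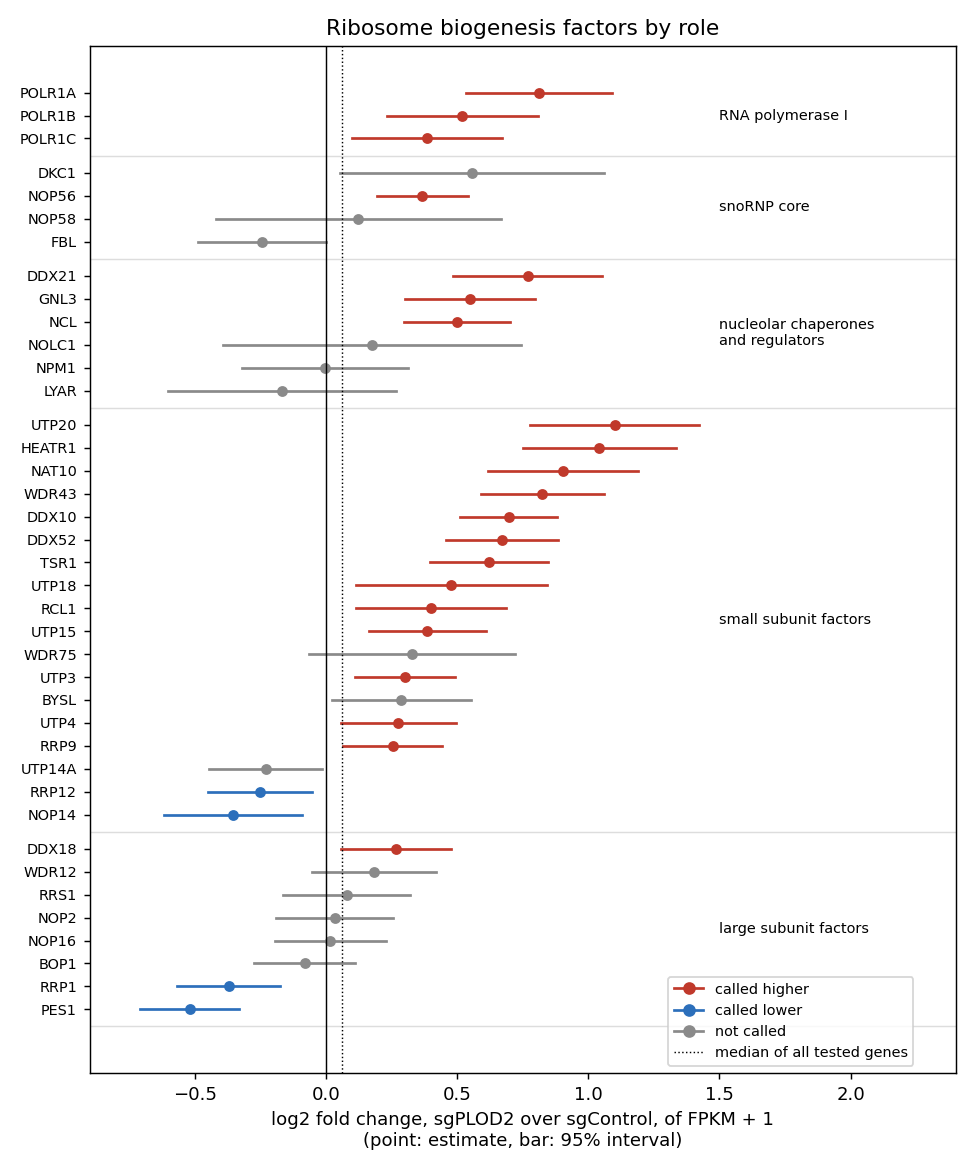
Log2 fold change of FPKM + 1, sgPLOD2 over sgControl, for each of the 39 factors grouped by role, with points for estimates and bars for 95% intervals from limma (n = 3 libraries per group). Called increases run up to 1.10 for UTP20 and fill most of the small subunit class, while PES1 at -0.52 is the lowest.

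Added up, the 39 factors gave 1338, 1302 and 1221 FPKM in the sgPLOD2 libraries, against 1150, 1147 and 1161 FPKM in the sgControl libraries. Their share of all FPKM was 0.560%, 0.567% and 0.532% in sgPLOD2 libraries, against 0.428%, 0.471% and 0.459% in sgControl libraries. Neither measure overlapped between the groups. By role, the sum of the 18 small subunit factors was 331 ± 8.41 FPKM in sgPLOD2 and 263 ± 6.30 FPKM in sgControl (SD, n = 3 each). The sum of the 8 large subunit factors was 290 ± 8.21 FPKM in sgPLOD2 and 313 ± 13.6 FPKM in sgControl (SD, n = 3 each). As a mean share of all FPKM, the small subunit sum was 0.142% in sgPLOD2 and 0.103% in sgControl. The large subunit share was 0.125% and 0.123%, with overlapping libraries, so its lower sum in sgPLOD2 did not hold on this measure. In bulk RNA, more RNA per cell and a larger share of expressing cells cannot be told apart.

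The 3 RNA polymerase I genes among the 39 factors all rose in sgPLOD2 cells, against 29.5% of all tested genes called higher, with a summed level of 22.8 ± 0.55 FPKM there and 14.0 ± 2.03 FPKM in sgControl (SD, n = 3 each). POLR1A (ENSG00000068654, chr2:86020216-86106155, minus strand), the largest and catalytic subunit, was at 9.77, 11.1 and 11.8 FPKM in sgPLOD2, against 5.01, 6.61 and 5.75 FPKM in sgControl. Every sgPLOD2 library was above every sgControl library, with a log2 fold change of 0.81 (SE 0.12, adjusted p = 0.00136). POLR1B, the second-largest subunit and partner of POLR1A in the active centre, averaged 5.87 ± 0.16 FPKM in sgPLOD2 and 3.82 ± 0.71 FPKM in sgControl (log2 fold change 0.52, adjusted p = 0.0103). POLR1C, a subunit shared with RNA polymerase III, was at 6.81, 5.85 and 5.58 FPKM in sgPLOD2, against 3.71, 4.64 and 4.94 FPKM in sgControl. Its groups were separate but close, with a log2 fold change of 0.38 (SE 0.12, adjusted p = 0.0321). The ratio of POLR1A to POLR1B was 1.71, 1.90 and 1.95 in sgPLOD2, against 1.63, 1.47 and 1.47 in sgControl, without overlap. The POLR1C call was lost when any library except sgControl replicate 3 was left out (adjusted p 0.0504 to 0.108), and POLR1C shares 348 exonic bases with XPO5 on the other strand, itself at 16.2 FPKM in sgPLOD2 and 7.07 FPKM in sgControl. Removing the trend with GC content and transcript length ended all 3 calls, at adjusted p = 0.0601 for POLR1A, 0.243 for POLR1B and 0.0822 for POLR1C.

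The snoRNP core genes did not move as one. NOP56 (ENSG00000101361, chr20:2652145-2658393, plus strand), a scaffold of the methylating box C/D particles, was at 46.2, 44.8 and 45.3 FPKM in sgPLOD2, against 34.4, 34.0 and 36.7 FPKM in sgControl. The libraries of each group lay within a narrow band and the bands were apart, with a log2 fold change of 0.37 (SE 0.07, adjusted p = 0.0054). Its partner scaffold NOP58 was at 13.8, 12.8 and 12.7 FPKM in sgPLOD2, against 18.3, 9.60 and 9.50 FPKM in sgControl. The first sgControl library exceeded every sgPLOD2 library while the other 2 lay below them, and NOP58 was not called (log2 fold change 0.12, adjusted p = 0.675), whereas without sgControl replicate 1 it was higher by 0.42 (adjusted p = 0.00535). FBL, fibrillarin, the methyltransferase of the same particles, was at 88.7, 76.5 and 83.2 FPKM in sgPLOD2, against 110, 89.7 and 95.8 FPKM in sgControl. All sgPLOD2 values were below all sgControl values, yet the log2 fold change of -0.24 (SE 0.10, adjusted p = 0.085) did not pass, and it passed under median-of-ratios scaling (-0.31, adjusted p = 0.0476). FBL thus stood at 1.92, 1.71 and 1.84 times NOP56 in sgPLOD2, against 3.19, 2.64 and 2.61 times in sgControl. DKC1, dyskerin, the pseudouridine synthase of the box H/ACA particles, averaged 35.2 ± 1.66 FPKM in sgPLOD2 and 24.4 ± 7.30 FPKM in sgControl. The DKC1 groups did not overlap, but sgControl replicate 1 at 16.0 FPKM lay far under the other 2 sgControl libraries at 29.3 and 27.8 FPKM. DKC1 was not called (log2 fold change 0.56, adjusted p = 0.0616), and was called without sgControl replicate 1 (0.29) or without sgControl replicate 2 (0.71), at adjusted p between 0.0203 and 0.0342.

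Among the nucleolar chaperones and regulators, 3 of 6 (50%) rose, against 29.5% of all tested genes, and none was called lower, against 23.5%. DDX21 (ENSG00000165732), an RNA helicase that acts in both RNA polymerase I and II transcription, was at 54.3, 65.9 and 58.9 FPKM in sgPLOD2, against 30.6, 39.7 and 33.8 FPKM in sgControl. The gap between the groups was wider than either group's range, with a log2 fold change of 0.77 (SE 0.12, adjusted p = 0.00191). GNL3, nucleostemin, a nucleolar GTP-binding protein, averaged 28.5 ± 1.43 FPKM in sgPLOD2 and 19.2 ± 2.35 FPKM in sgControl (log2 fold change 0.55, adjusted p = 0.00437). NCL, nucleolin, a major nucleolar RNA-binding protein, averaged 127 ± 8.38 FPKM in sgPLOD2 and 89.7 ± 4.50 FPKM in sgControl (log2 fold change 0.50, adjusted p = 0.00273). NPM1, nucleophosmin, the histone and ribosomal protein chaperone and the most abundant of the 39, was at 216, 207 and 158 FPKM in sgPLOD2, against 211, 184 and 183 FPKM in sgControl. The sgControl values lay inside the range of the sgPLOD2 values, and the 95% interval of its log2 fold change ran from -0.32 to 0.32 (adjusted p = 0.989). The 46 annotated NPM1 pseudogenes summed to 38.7 FPKM in sgPLOD2 and 35.9 FPKM in sgControl, so reads may have been divided among these copies and the NPM1 level is uncertain. NOLC1, a chaperone of snoRNPs, and LYAR, a zinc-finger protein of pre-rRNA processing, were not called (log2 fold changes 0.18 and -0.17, adjusted p 0.562 and 0.473). NOLC1 was at 50.1, 39.3 and 37.2 FPKM in sgPLOD2, against 25.4, 50.1 and 39.5 FPKM in sgControl, a spread inside sgControl wider than the difference between the groups. With chromosome medians removed GNL3, which lies on chromosome 3, lost its call (0.22, adjusted p = 0.129).

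The small subunit factors held the largest increases. Of 18 genes, 13 (72.2%) were called higher and 2 (11.1%) lower, against 29.5% and 23.5% of all tested genes, with a median log2 fold change of 0.39. UTP20 (ENSG00000120800, chr12:101280109-101386616, plus strand), a very large scaffold protein of the small subunit processome, was at 5.81, 7.60 and 6.96 FPKM in sgPLOD2, against 2.82, 3.00 and 2.09 FPKM in sgControl. The lowest sgPLOD2 library was well above the highest sgControl library, and the ratio of group means was 2.57 (log2 fold change 1.10, SE 0.14, adjusted p = 0.000729). HEATR1 (ENSG00000119285, chr1:236549005-236604504, minus strand), counterpart of yeast Utp10 in the UtpA complex that first binds the precursor, was at 8.44, 9.86 and 9.91 FPKM in sgPLOD2, against 4.62, 4.26 and 3.34 FPKM in sgControl. Here too the groups were far apart, with means in the ratio 2.31 (log2 fold change 1.04, SE 0.12, adjusted p = 0.000613). HEATR1 shares 2095 exonic bases with LGALS8 on the other strand, which was at 2.43 FPKM in sgPLOD2 and 1.95 FPKM in sgControl, and the strand setting of the counting is not given in the sources used here.

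NAT10 (ENSG00000135372, chr11:34105602-34147670, plus strand), the enzyme that acetylates cytidines of the small-subunit rRNA, was at 17.8, 17.6 and 21.2 FPKM in sgPLOD2, against 8.21, 10.6 and 10.1 FPKM in sgControl. The NAT10 groups did not overlap (log2 fold change 0.91, SE 0.12, adjusted p = 0.000987). WDR43 (ENSG00000163811, chr2:28894643-28948222, plus strand), the Utp5 counterpart and another UtpA subunit, was at 19.0, 22.6 and 19.2 FPKM in sgPLOD2, against 10.8, 11.8 and 10.3 FPKM in sgControl. It too was separate in every library (log2 fold change 0.83, SE 0.10, adjusted p = 0.00063). DDX10, a helicase whose yeast counterpart Dbp4 releases a snoRNA from the precursor, was at 4.27, 4.27 and 4.24 FPKM in sgPLOD2, against 2.20, 2.18 and 2.36 FPKM in sgControl. Its log2 fold change was 0.70 (SE 0.08) with the smallest adjusted p of the 39, 0.000494. The helicase gene DDX52, the yeast Rok1 counterpart, averaged 3.85 ± 0.33 FPKM in sgPLOD2 and 2.05 ± 0.11 FPKM in sgControl (log2 fold change 0.67, adjusted p = 0.00102). TSR1, a factor of late pre-40S particles that resembles translation GTPases, averaged 27.6 ± 1.58 FPKM in sgPLOD2 and 17.6 ± 1.62 FPKM in sgControl (log2 fold change 0.62, adjusted p = 0.00174), and it shares 1146 exonic bases with the opposite-strand gene SRR, at 5.67 FPKM in sgPLOD2 and 3.13 FPKM in sgControl.

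**Figure D2:**
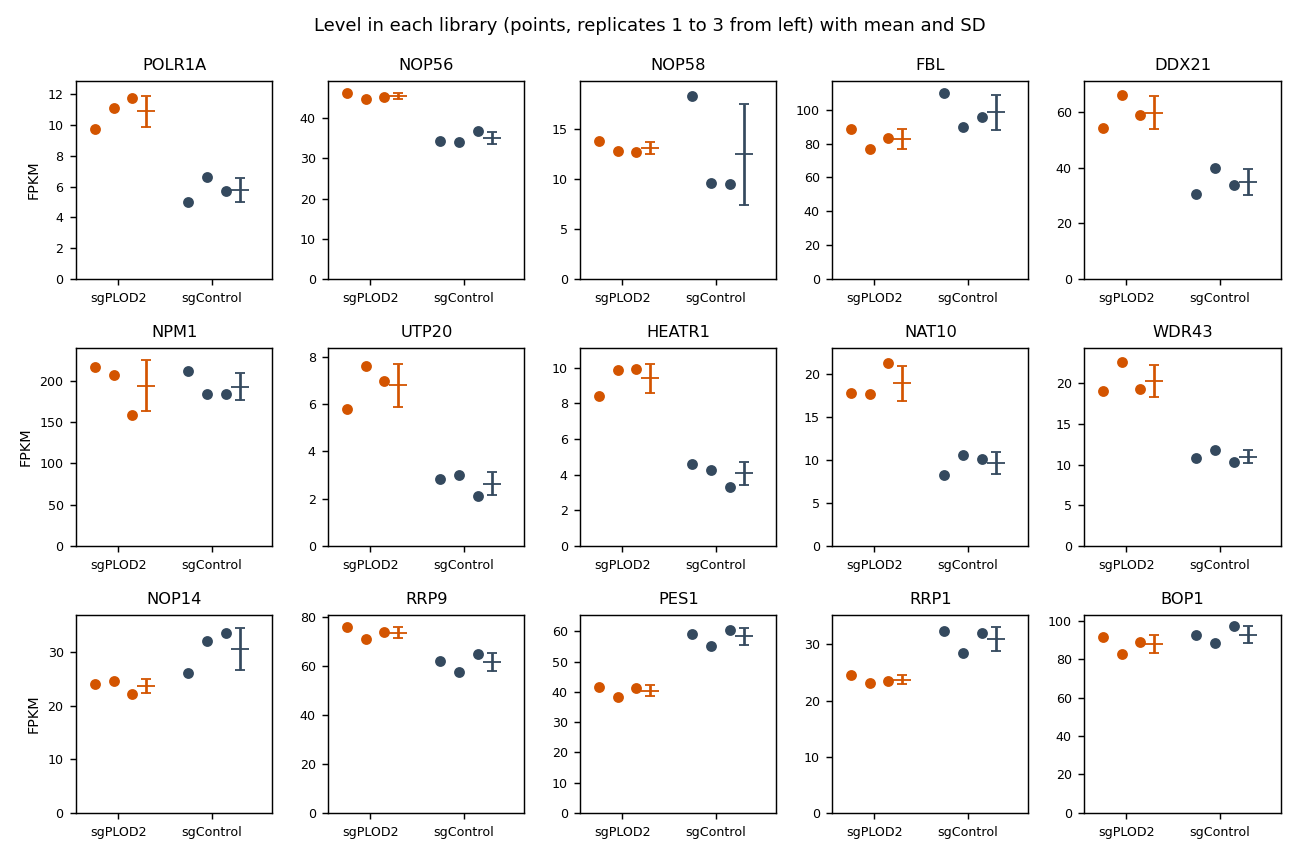
FPKM in each library for 15 of the factors, with sgPLOD2 points on the left and sgControl points on the right of each panel and the mean ± SD (n = 3) beside them. UTP20, HEATR1, NAT10 and WDR43 are separate between the groups, PES1 and RRP1 are separate in the other direction, and the NOP58 spread in sgControl comes from 1 library at 18.3 FPKM.

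Smaller increases were called for 6 more processome genes, and each of them depended on single libraries or on a setting. UTP18, a UtpB subunit, rose by 0.48 (adjusted p = 0.0353), and RCL1, which in yeast is needed for an early cut of the precursor, by 0.40 (adjusted p = 0.0279). UTP15, of UtpA, rose by 0.39 (adjusted p = 0.0123), UTP3 by 0.30 (adjusted p = 0.0176) and UTP4, also of UtpA, by 0.28 (adjusted p = 0.0411), all as log2 fold changes. RRP9, a protein of the U3 snoRNP that guides early cleavage, was at 75.7, 70.9 and 73.8 FPKM in sgPLOD2, against 62.1, 57.5 and 64.8 FPKM in sgControl. Its groups did not overlap (log2 fold change 0.26, SE 0.08, adjusted p = 0.0318), but the RRP9 fold change was -0.077 after the median of chromosome 3 had been removed. The calls of UTP3, UTP4, UTP18, RCL1 and RRP9 were each lost without certain libraries. UTP4 lost its call without sgControl replicate 2 or 3 or any sgPLOD2 library (adjusted p 0.0747 to 0.136), and RRP9 without sgControl replicate 2 or any sgPLOD2 library (0.0641 to 0.1). UTP18 lost it without sgControl replicate 1 or sgPLOD2 replicate 1 or 2 (0.0732 to 0.107), RCL1 without sgControl replicate 1 or 3 or sgPLOD2 replicate 1 or 2 (0.0524 to 0.0927), and UTP3 without sgControl replicate 3 or sgPLOD2 replicate 1 or 2 (0.0553 to 0.0687). UTP15 kept its call without any single library. It lost the call when the GC and length trend was removed (log2 fold change 0.08, adjusted p = 0.541). The UTP15 call was also lost with chromosome medians removed (log2 fold change 0.25, adjusted p = 0.0612) and under quantile scaling.

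Not every processome gene rose. WDR75, the Utp17 counterpart of UtpA, was at 6.58, 7.32 and 5.99 FPKM in sgPLOD2, against 6.49, 5.18 and 3.82 FPKM in sgControl. The first sgControl library lay among the sgPLOD2 values, and WDR75 was not called (log2 fold change 0.33, SE 0.17, adjusted p = 0.137). BYSL, the counterpart of yeast Enp1 in pre-40S particles, was not called either (0.29, adjusted p = 0.0658). NOP14, a processome protein, was at 24.0, 24.7 and 22.1 FPKM in sgPLOD2, against 26.1, 32.2 and 33.6 FPKM in sgControl. Each sgPLOD2 library was below each sgControl library, with a log2 fold change of -0.35 (SE 0.11, adjusted p = 0.0321). RRP12, a factor of pre-ribosome export, was at 14.6, 15.0 and 14.9 FPKM in sgPLOD2, against 16.4, 19.0 and 18.3 FPKM in sgControl. It also did not overlap (log2 fold change -0.25, SE 0.08, adjusted p = 0.039). UTP14A, which activates a helicase in the processome, had a value of -0.23 and was not called (adjusted p = 0.0697), but was called lower under median-of-ratios scaling (-0.29, adjusted p = 0.0267). Both lower calls were lost without sgControl replicate 2 or 3 or any sgPLOD2 library, at adjusted p 0.0636 to 0.104 for NOP14 and 0.0832 to 0.114 for RRP12, and under TPM (-0.23 and -0.13).

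The large subunit factors were nearly level as a class, with a median log2 fold change of 0.03, 1 of 8 (12.5%) called higher and 2 (25%) called lower, against 29.5% and 23.5% of all tested genes. PES1 (ENSG00000100029, chr22:30576625-30607083, minus strand), BOP1 and WDR12 form the PeBoW complex, which is needed to mature the large-subunit rRNA. PES1 was at 41.8, 38.3 and 41.3 FPKM in sgPLOD2, against 59.3, 55.2 and 60.6 FPKM in sgControl. The groups were wide apart, and PES1 had the most negative fold change of the 39 (-0.52, SE 0.08, adjusted p = 0.00181). BOP1 was at 91.6, 82.6 and 89.2 FPKM in sgPLOD2, against 92.6, 88.4 and 97.4 FPKM in sgControl. These values overlapped, and BOP1 was not called (-0.08, 95% interval -0.27 to 0.11, adjusted p = 0.437). WDR12, at 5.30 ± 0.50 FPKM in sgPLOD2 and 4.55 ± 0.37 FPKM in sgControl, was not called (0.18, adjusted p = 0.165). The BOP1 to PES1 ratio was therefore 2.19, 2.16 and 2.16 in sgPLOD2, against 1.56, 1.60 and 1.61 in sgControl, without overlap. Removal of the GC and length trend turned BOP1 to 0.40 (adjusted p = 0.00686) and WDR12 to -0.32 (adjusted p = 0.0382), while PES1 stayed lower.

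RRP1, whose yeast counterpart acts in early large-subunit maturation, was at 24.6, 23.1 and 23.5 FPKM in sgPLOD2, against 32.3, 28.5 and 32.1 FPKM in sgControl. There was no overlap, with a log2 fold change of -0.37 (SE 0.08, adjusted p = 0.00873). DDX18, a helicase and counterpart of yeast Has1, was at 10.4, 11.4 and 10.3 FPKM in sgPLOD2, against 9.38, 8.56 and 8.18 FPKM in sgControl. It was called higher (0.27, SE 0.09, adjusted p = 0.0383), but not without sgControl replicate 2 or 3 or any sgPLOD2 library (adjusted p 0.0672 to 0.131), and the value was -0.12 after removal of the GC and length trend. NOP16 was at 31.0, 27.4 and 27.8 FPKM in sgPLOD2, against 28.3, 26.6 and 30.4 FPKM in sgControl. The NOP16 values were intermixed (0.02, 95% interval -0.19 to 0.23, adjusted p = 0.889). NOP16 shares 227 exonic bases with HIGD2A on the other strand, at 63.7 FPKM in sgPLOD2 and 63.9 FPKM in sgControl. The part of shared reads in the NOP16 level was not tested. NOP2, a cytosine methyltransferase of the large-subunit rRNA, and RRS1, which helps bring in the 5S particle, gave 0.03 and 0.08 (adjusted p 0.79 and 0.543).

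Some features were shared by factors that moved the same way. The longest transcripts of the 21 factors called higher had a median GC content of 44.8% and a median length of 4183 bases. Those of the 4 called lower had 58.4% and 3280 bases, and those of the 14 not called had 48.4% and 2174 bases. In GC content all tested genes differed likewise, at 45.3% in genes called higher, 56.3% in genes called lower and 49.1% in genes not called. Their median lengths were 4406, 2468 and 3127 bases, so genes called lower were the shortest, whereas among the factors those not called were. Over all tested genes the medians were 49.3% and 3293 bases. Across the 39 factors, Spearman's rho of the fold change was -0.485 with GC content and 0.538 with length. Over 10457 tested genes it was -0.349 and 0.333, and all of these points share the same 6 libraries. After a smooth trend with GC content and length had been removed, 17 factors were called higher and 4 lower, against 21.4% and 23% of all tested genes. Of the 21 higher calls 14 were kept, and BYSL (0.53), BOP1 (0.40) and RRS1 (0.32) were gained. Besides the RNA polymerase I genes, DDX52 (0.25), UTP4 (0.04), UTP15 and DDX18 lost theirs. Of the 4 lower calls NOP14 and PES1 were kept, RRP1 (-0.16) and RRP12 (-0.21) lost theirs, and UTP14A (-0.28) and WDR12 gained one.

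**Figure D3:**
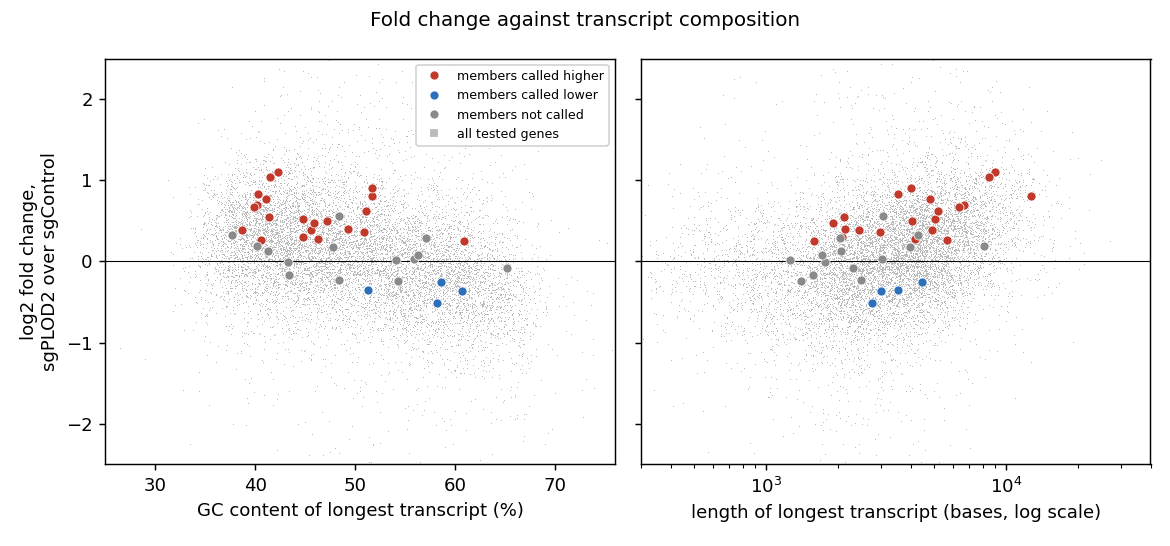
Log2 fold change, sgPLOD2 over sgControl, against GC content (left) and length (right, log axis) of the longest transcript, with the 39 factors in colour over 10457 tested genes in grey, of which 219 fall outside an axis. Factors called higher lie mostly at low GC content (median 44.8%) and long transcripts (median 4183 bases), along the cloud of all genes.

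The groups also differed along chromosomes, whose median log2 fold changes ran from -0.25 on chromosome 16 to 0.54 on chromosome 14 among the autosomes. The factors sit on 18 chromosomes and none is on chromosome 14. Chromosome 2, with a median of 0.16 over 692 tested genes, carries 8 of them (DDX18, NCL, NOP58, POLR1A, POLR1B, WDR12, WDR43 and WDR75). Of these 8, 5 were called higher, against 29.5% of all tested genes, and the share for chromosome 2 alone is not given here. With each chromosome's median removed, 14 factors were called higher and 4 lower, against 22.9% and 24.3% of all tested genes, and the median of the factors was 0.11. The 10 factors called higher in the values as deposited and again under both removals were NOP56, NCL, DDX21, WDR43, UTP20, DDX10, HEATR1, NAT10, RCL1 and TSR1. Of these, RCL1 lost its call without certain single libraries, as given above. UTP20 gained slightly with chromosome medians removed (1.18) and was 0.56 with the GC and length trend removed. Over all 18 other settings that test them, DDX10, DDX21, HEATR1, NAT10, NCL, NOP56, TSR1, UTP20 and WDR43 were always called higher and PES1 always lower. How often all tested genes kept their calls in these ways is not given here, so neither list sets the factors apart from other genes.

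**Figure D4:**
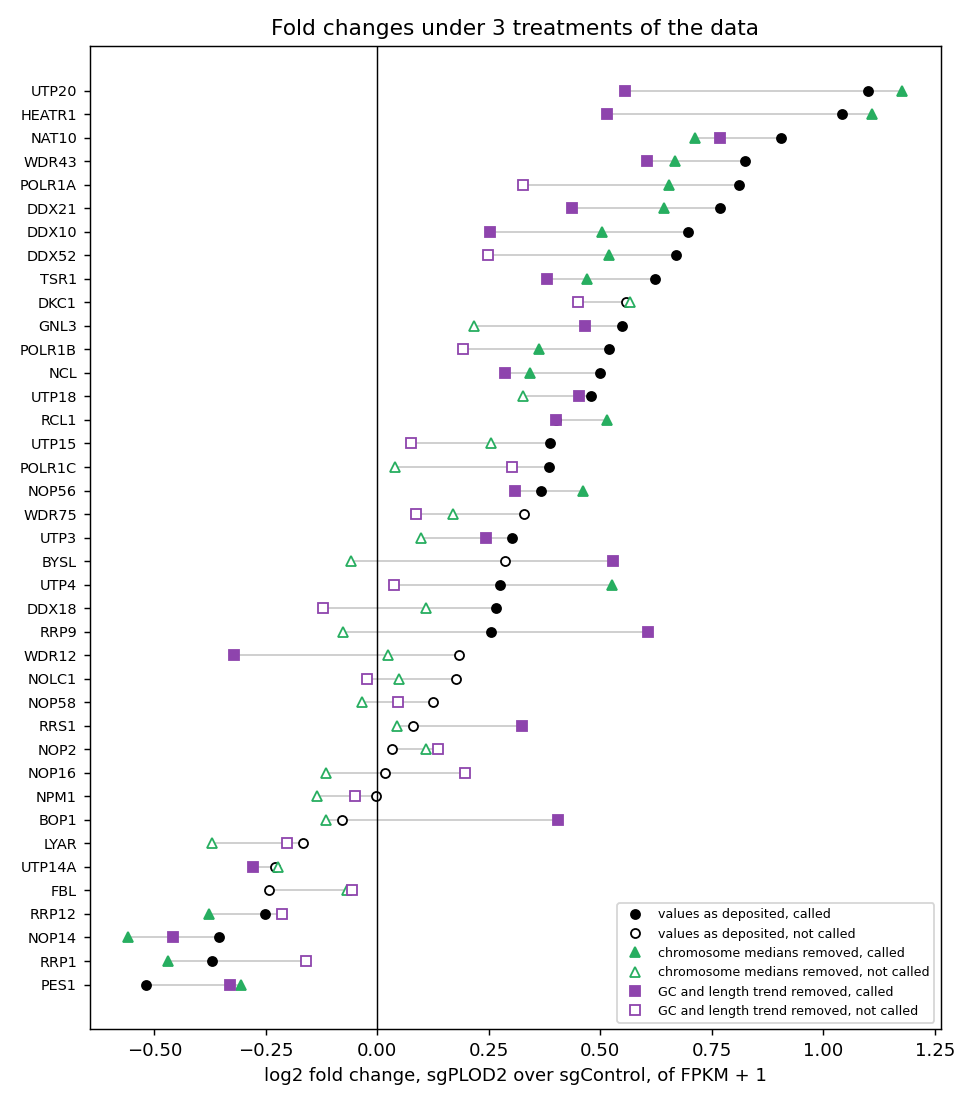
Log2 fold change, sgPLOD2 over sgControl, of each of the 39 factors in the values as deposited (circles), with chromosome medians removed (triangles) and after removal of the GC and length trend (squares), filled where called. UTP20, HEATR1, NAT10 and WDR43 stay filled on the right and PES1 stays filled on the left. RRP9, BOP1, WDR12, DDX18 and BYSL cross 0 under 1 of the removals with a filled symbol on 1 side. Some other factors cross 0 between open symbols.

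Within the groups the median coefficient of variation of the factors was 6.77% in sgPLOD2 and 9.76% in sgControl, against 8.62% and 12.7% for all tested genes. The factors were also at higher levels, with a median of 16.4 FPKM against 5.79 FPKM, and the part of level in this spread was not tested. In sgControl the coefficient was highest for NOP58 (40.6%), NOLC1 (32.4%) and DKC1 (29.95%). Replicate 1 was the sgControl library farthest from the group's median for 24 of the 39 factors (61.5%), against 50.6% of all tested genes. Measured from each factor's sgControl mean, the median log2 deviation of the factors was 0.32, 0.35 and 0.24 in the sgPLOD2 libraries. The values of the sgControl libraries, -0.02, 0.05 and 0.02, are small by construction. Over all tested genes the median log2 fold change between the groups was 0.06.

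MYC binds, with its partner MAX, the sequence CACGTG known as the canonical E-box, and the promoters were searched for these letters, which read the same on both strands. RefSeq promoter windows (GRCh38.p14, from 250 bases before to 50 after a transcription start) were found for 32 of the 39 factors. Of their 37 windows, 16 held CACGTG (43.2%), against 9.64% of 11307 windows of tested genes and 7.26% of all 35116 windows. It was present in 9 of 22 windows of factors called higher, in 2 of 3 of factors called lower and in 5 of 12 of those not called. A match describes letters in a window and shows no binding. The 60 bases around the motif are shown for 3 factors that were called higher and 1 that was not, read 5′ to 3′ on the gene's strand with the motif in capitals. They lie at chr12:101280045-101280104 (UTP20), chr11:34105569-34105628 (NAT10), chr17:51260430-51260489 (UTP18) and chrX:129905914-129905973 (UTP14A), all on the plus strand.
UTP20: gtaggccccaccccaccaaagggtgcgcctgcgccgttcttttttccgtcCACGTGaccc
NAT10: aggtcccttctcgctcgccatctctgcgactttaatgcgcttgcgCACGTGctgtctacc
UTP18: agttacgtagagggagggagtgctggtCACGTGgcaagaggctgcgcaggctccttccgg
UTP14A: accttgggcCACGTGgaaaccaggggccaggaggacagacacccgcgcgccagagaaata
In UTP20 the motif begins 10 bases before the start and in NAT10 15 bases before it, whereas in UTP14A it begins 241 bases before. The UTP18 window held 2 matches, and the one shown, the first of them, begins 89 bases before the start.

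MYC itself varied far more between replicates than the factors did. It was at 12.5, 1.01 and 24.4 FPKM in the sgPLOD2 libraries, against 9.98, 0.776 and 0.742 FPKM in the sgControl libraries. One high sgControl library and 1 low sgPLOD2 library made the groups overlap, and MYC was not called (log2 fold change 1.45, SE 1.06, adjusted p = 0.283). The part of MYC in the levels of the factors was not tested. Of the 8 tested genes of the MYC network, none was called higher and 4 (50%) were called lower, against 29.5% and 23.5% of all tested genes: MAX, MXD3, MXD4 and MNT. MXD4, which competes with MYC for MAX, was at 2.44, 2.32 and 3.55 FPKM in sgPLOD2, against 8.26, 7.61 and 7.74 FPKM in sgControl (log2 fold change -1.25, adjusted p = 0.000394). Because the list joins MYC, its partner and a competitor, the calls have no single direction for MYC. Under the 1 FPKM minimum and so untested, MGA averaged 1.09 FPKM in sgPLOD2 and 0.298 FPKM in sgControl. MYCL, also untested, went the other way, at 0.155 FPKM in sgPLOD2 and 0.299 FPKM in sgControl.

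Beyond the 39 factors, 140 further genes of the pathway were listed by function, and 139 of them could be tested. Of these 46 (33.1%) were called higher and 22 (15.8%) lower, with a median log2 fold change of 0.11, closer to the background of 29.5% and 23.5% than the 39 factors were. Among 12 other RNA polymerase I genes, 7 (58.3%) rose and 1 (8.33%) fell. POLR1E, which with its partner POLR1G helps the polymerase start and elongate, was at 36.9, 35.7 and 34.7 FPKM in sgPLOD2, against 14.3, 16.0 and 16.6 FPKM in sgControl (log2 fold change 1.15, adjusted p = 8.53e-05). TAF1B, of the promoter selectivity factor, rose by 0.80 (adjusted p = 0.000616), and POLR1D, shared with RNA polymerase III, fell by 0.48 (adjusted p = 0.00389). Among 14 other snoRNP and assembly genes, 5 (35.7%) rose and 4 (28.6%) fell. SHQ1, a chaperone of dyskerin, rose by 1.02 (adjusted p = 0.000583) and COIL, the Cajal body protein coilin, by 0.70 (adjusted p = 0.00152). NAF1, an assembly factor of the same H/ACA particles, fell by 0.44 (adjusted p = 0.0103), and NHP2, one of their core proteins, fell by 0.33 (adjusted p = 0.0233).

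Of 40 other small subunit factors tested, 14 (35%) rose and 7 (17.5%) fell. FCF1, a processome protein, rose by 1.00 (adjusted p = 0.0112) and ESF1, a nucleolar processing factor, by 0.93 (adjusted p = 0.0021). TSR3, which modifies the small-subunit rRNA, fell by 0.78 (adjusted p = 0.00268), and BUD23, one of its methyltransferases, fell by 0.56 (adjusted p = 0.00527). Of 56 other large subunit factors, 15 (26.8%) rose and 9 (16.1%) fell. GNL3L, a GTP-binding relative of GNL3, was at 11.4, 13.0 and 13.5 FPKM in sgPLOD2, against 1.64, 6.16 and 4.16 FPKM in sgControl (log2 fold change 1.56, adjusted p = 0.00674). MDN1, a giant AAA-type ATPase that strips factors from pre-60S particles, rose by 1.24 (adjusted p = 0.00121). ZNF622, whose yeast counterpart Rei1 acts on late pre-60S particles, fell by 0.72 (adjusted p = 0.00503), and the helicase gene DDX54 fell by 0.63 (adjusted p = 0.00177). The median of these large subunit genes was 0.08, and that of the other small subunit genes was 0.17.

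The authors' deposited table also holds their own comparison of the same libraries. By the authors' deposited table, 13 of the 39 factors had an adjusted p under 0.05 with a higher level in sgPLOD2 and 5 with a lower one, against 18.5% and 17% of the 22870 genes given an adjusted p. Those genes include many under the 1 FPKM minimum, which left 10469 genes and which all 39 factors passed. In limma's fit, 29.5% of genes were called higher and 23.5% lower with that minimum, against 14.2% and 10.1% without it. The authors' shares are therefore not a matched background for the factors. The sign was the same as in limma's fit for 35 factors, and 17 were called in both. For UTP20 the authors' deposited table gives a log2 fold change of 1.27 (adjusted p = 1.9e-10) and for PES1 -0.62 (adjusted p = 1.61e-05). For NOP56 it gives 0.28 with an adjusted p of 0.0618, above the threshold.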

How the data were processed

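RNA of 6 libraries (3 sgPLOD2, 3 sgControl) was sequenced. CASAVA, HISAT2 2.1.0, StringTie 1.3.4 and GRCh38 are named, without roles, in the submitters' processing notes. How reads were counted, with which strand setting and annotation, is not given in the sources used here. Per the file headers, the authors deposited 1 FPKM value per gene and library. The same deposited table holds the authors' own comparison: mean normalized counts as a signal, log2 fold changes, a test score and p-values. No counts per library were used, so the depth is unknown and counting intervals could not be given. FPKM sums ran from 229485 to 268612 per library, and relative size factors differed by at most 1.18 times.

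The 10469 genes that averaged 1 FPKM or more were tested on log2(FPKM + 1), which understates changes of low genes, with limma 3.58.1 in R 4.3.3 (lmFit, eBayes with an intensity trend). Tests were 2-sided with Benjamini-Hochberg adjustment over all tested genes. PLOD2 was also compared by an exact permutation test (scipy 1.17.1). The factors and lists were chosen with earlier results of these data known, so counts over them are descriptions. Per-library values are given for the members with the smallest adjusted p per direction, highest level or largest adjusted p of each role class, and for the 5 largest fold changes per direction, and of each other list the 2 largest called changes per direction are named. Others were named after their values had been seen. Coordinates, GC content and transcript lengths came from GENCODE 29 (GRCh38), and 99.89% of tested genes had a value. Other settings tried were no filter, a 5 FPKM minimum, pseudocounts of 0.1 and 0.5, TPM (also leaving out mitochondrial and ribosomal protein genes), quantile and median-of-ratios scaling, no trend, a replicate block, removal of chromosome medians or of a GC and length trend (mgcv 1.9.3), and each library left out. In simulated data of this comparison, 200 of 10469 genes were given a change. Of planted log2 changes of 0.5, 1 and 2, limma recovered 37.3%, 82.1% and 100%, with 1.35% false calls.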

Additional observations from a re-analysis of the deposited data

How the results depend on the processing

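PLOD2 stayed called lower under all 18 alternatives (-1.94 to -1.47). Of the 25 called factors, 10 kept their call under every alternative that tests them and 15 lost it under at least 1. Of the 14 not called, 9 gained a call under at least 1, and 5 under none. The matching counts over all tested genes are not given here. Factors called lower numbered 2 under TPM, under TPM that left out mitochondrial and ribosomal protein genes, under quantile scaling and with the replicate block, 3 without a filter and 6 under median-of-ratios scaling. The shares of all tested genes called lower were, in that order, 17.5%, 19.4%, 26.2%, 22.3%, 10.1% and 26.2%. The median log2 fold change of the factors was 0.45 under TPM, 0.41 under TPM without those genes, 0.24 under median-of-ratios scaling and 0.11 with chromosome medians removed. With a minimum of 5 FPKM, 6 factors went untested by construction. Of the 33 tested, 16 were called higher and 4 lower, against 23.9% and 29% of all tested genes. Of all genes 1361 were called higher and 1649 lower, and of wider pathway genes 30 higher and 19 lower. Wider pathway genes called lower numbered 11 under TPM and 14 without those genes. Without 1 library at a time, factors called higher numbered 14 to 22 and lower 2 to 5, wider pathway genes called lower 12 to 19 and higher 35 to 50. The shares of all tested genes then ran from 21.6% to 31.6% called higher and from 18.7% to 24.3% called lower. A value was counted as reversed when its sign changed and the factor was called in the reported fit or in the other one. Reversed values were BOP1 at 0.40, WDR12 at -0.32 and DDX18 at -0.12 after removal of the GC and length trend. RRP9 reversed to -0.077 with chromosome medians removed, and the cause of these reversals was not tested. Other factors changed sign without a call in either fit, such as BYSL at -0.058 with chromosome medians removed. Replicate numbers did not pair the libraries (correlations of deviations 0.014, 0.135 and -0.049), and the replicate block called 19 factors higher and 2 lower, against 28.5% and 22.3% of all genes. In simulated data with 3 libraries per group, changes near 0.5 on the log2 scale were often missed. Only 200 of 10469 genes had been changed there, whereas 29.5% and 23.5% of tested genes were called higher and lower in the data. The adjustment was therefore stricter in the simulation, and its recovery does not give the power of this comparison. Factors not called are still not shown to be equal.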

Other observations

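Ribosomal proteins are the building blocks that the factors join to ribosomal RNA. Of 79 cytosolic ribosomal protein genes, 15 (19%) were called higher and 11 (13.9%) lower, against 29.5% and 23.5% of all tested genes, with a median log2 fold change of -0.05. RPS4X was at 529, 469 and 476 FPKM in sgPLOD2, against 207, 194 and 214 FPKM in sgControl (log2 fold change 1.26, adjusted p = 6.21e-05), and RPL14 rose by 1.03 (adjusted p = 0.00293). RPS21 fell by 0.70 (adjusted p = 0.00412), and RPL35 fell by 0.57 (adjusted p = 0.00332). Ribosomal protein genes have many processed copies, so their levels are uncertain. Of the genes for RNA polymerase III, which transcribes the smallest ribosomal RNA, POLR3B was called higher (log2 fold change 0.73, adjusted p = 0.000671). POLR3K was at 14.0, 12.8 and 12.7 FPKM in sgPLOD2, against 20.9, 21.0 and 25.3 FPKM in sgControl (log2 fold change -0.72, adjusted p = 0.00117). POLR3K was called lower. Both RNA polymerase III genes were chosen after their values had been seen.

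Of 17 genes of the exosome and of pre-rRNA trimming, 5 (29.4%) rose and 1 (5.88%) fell, against 29.5% and 23.5% of all tested genes, so the share called higher was that of the background. MTREX, the helicase that feeds RNA to the nuclear exosome, rose by 0.83 (adjusted p = 0.00327), and the exonuclease gene XRN2 rose by 0.65 (adjusted p = 0.0043). EXOSC8, an exosome ring subunit, fell by 0.34 (adjusted p = 0.0368). Inside 8 of the factors lie 26 annotated snoRNA genes on the same strand, of which 4 were listed at 0 in every library. The highest single value was 1.08 FPKM, for SNORD69 within GNL3, in an sgPLOD2 library.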
